A study of Mus musculus with 24 samples.

Results

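The integrated stress response genes described here are Atf4, Atf5, Ddit3, Trib3, Gdf15, Asns, Psat1, Phgdh, Sesn2 and Eif4ebp1, 10 of the 22355 genes in a liver RNA-seq count table. They were taken by gene symbol, and each of the 10 had a single row and enough counts to be tested. The table held 24 livers of diet-induced obese mice, 8 mice in each of 3 groups. All mice had been injected for 4 d, with vehicle or with IUB288, which acts as an agonist of the glucagon receptor and is known here only by its code name. Vehicle livers were collected 22 h after the last injection. IUB288 livers were collected either 4 h or 22 h after the last injection. No genetic alteration was named in the labels for any group, and the strain, sex and age of the mice were not given there. The 22 h group thus matches vehicle in time after injection, while in the 4 h group the agent and the time after injection cannot be told apart. Both comparisons with vehicle use the same 8 vehicle livers. Levels just before the last injection were not measured, so the groups do not trace a course within mice.

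The integrated stress response is a pathway by which cells lower general protein synthesis when amino acids run short, unfolded proteins build up in the endoplasmic reticulum, heme is lacking or mitochondria fail. Kinases phosphorylate the initiation factor eIF2α, bulk translation falls, and the mRNAs of a few transcription factors, ATF4 above all, are translated more. ATF4 then raises genes for amino acid synthesis, amino acid import and tRNA charging, together with CHOP (the product of Ddit3), the pseudokinase TRIB3 and the secreted hormone GDF15. In liver the pathway is known for its response to diets that lack an amino acid and to secretory stress. Since ATF4 and ATF5 are controlled mainly at translation, mRNA levels such as those below do not measure the amount or activity of these proteins.

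ATF4 and its partners of the C/EBP family bind composite elements written TGATGNAA, and CREB and ATF factors bind the palindrome TGACGTCA or the shorter TGACG. The Asns and Trib3 promoters are known for such elements, so stretches around the start sites of Asns, Trib3, Psat1 and Atf4 are shown. They come from RefSeq promoter windows on GRCm38.p6 that run from 250 bases before to 50 bases after a start site, and 9 of the 10 members matched, in 12 windows. No window was matched for Eif4ebp1. The first bases after the Trib3 start site were found in no GENCODE transcript of Trib3, so this start site is less sure than those of the other windows. All stretches are 5′ to 3′ on the strand of the gene. Capitals mark TGATGNAA (in Asns, and in Trib3 read on the other strand as TTACATCA), TGACG (here always read on the other strand, as CGTCA) and TGCAAT, a C/EBP-type sequence.
Asns, chr6:7693210-7693299, minus strand, ending 1 base before the start site: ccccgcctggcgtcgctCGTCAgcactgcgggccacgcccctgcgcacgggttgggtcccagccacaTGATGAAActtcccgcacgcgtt
Trib3, chr2:152344061-152344110, minus strand, ending 1 base before the start site: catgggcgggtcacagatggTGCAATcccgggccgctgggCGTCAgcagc
Trib3, chr2:152344028-152344057, minus strand, just after the start site: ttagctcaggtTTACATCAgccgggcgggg
Psat1, chr19:15925160-15925209, minus strand, further upstream: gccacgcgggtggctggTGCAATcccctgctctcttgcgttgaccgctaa
Atf4, chr15:80255134-80255183, plus strand, ending 1 base before the start site: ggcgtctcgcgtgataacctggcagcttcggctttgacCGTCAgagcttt
Searched on both strands, TGATGNAA lay in 2 of the 12 member windows (Asns and Trib3), against 3.97% of all 32851 windows. TGACG lay in 3 of the 12 (Trib3, Asns and Atf4), against 20.8% of all windows, and TGCAAT in 2 of the 12 (Trib3 and Psat1), against 8.40%. The full palindrome TGACGTCA, which contains TGACG, was in none of the 12 member windows and in 1.79% of all windows. A match is a run of letters and was not tested as a binding site, and a window without one says only that these letters are absent from it.

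Library totals ran from 13.99 to 44.1 M counts. Values are given as CPM, the counts of a gene per M counts of tested genes in its library after scaling by a TMM factor, and differences as log2 fold changes with their standard error (SE) from limma-voom. A gene is called changed when its adjusted p, over all 11508 tested genes, is below 0.05. Vehicle replicate 1 stands apart. Its 9 adipocyte markers, among them Ucp1 and Adipoq, summed to 4404 CPM, while the next highest liver had 83.5 CPM, and its neutrophil markers to 57.3 CPM, the next highest being 12.1 CPM. In the same liver 7 of the 10 members, Atf4, Ddit3, Asns, Psat1, Phgdh, Sesn2 and Eif4ebp1, were at their highest of the 8 vehicle livers, and their changes against vehicle are given with and without it. Markers of other cells also moved with treatment. Of 10 stellate cell and fibroblast markers 7 were lower at 4 h and 9 at 22 h, and of 8 endothelial markers 4 and 8, with none of either list higher. Summed stellate markers ran from 745 to 1398 CPM in vehicle (to 1095 CPM without replicate 1), 405 to 700 CPM at 4 h and 224 to 671 CPM at 22 h. Summed endothelial markers ran from 328 to 584 (539.7 without replicate 1), 335 to 400 and 153 to 375 CPM. Of 7 hepatocyte markers 3 were higher and 4 lower at either time. Their sum had a median of 86672.7 CPM in vehicle, 63390.5 CPM at 4 h and 60754.3 CPM at 22 h. Of 8 Kupffer cell and macrophage markers 1 was lower at 4 h and 4 at 22 h. Of 7 T, NK and B cell markers 3 and 4 were lower, and of 6 cholangiocyte markers 2 and 2, with none of these 3 lists higher. The part of these cells in the member values was not tested. In whole liver, fewer cells of a type and less RNA per cell cannot be told apart.

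At 4 h, 6 of the 10 members were called higher than vehicle and none lower, where 44.2% of all tested genes were called and 21.7% were called higher. These were Atf4, Atf5, Ddit3, Gdf15, Asns and Psat1. At 22 h the same 6 genes and Trib3 were called higher, 7 of 10, and none lower, where 36.8% of all tested genes were called and 17.6% were called higher. Phgdh, Sesn2 and Eif4ebp1 were not called at either time. Without vehicle replicate 1, 7 members were called higher at 4 h (22.3% of all genes) and 8 at 22 h (17.8% of all genes), the addition being Eif4ebp1 at both times. The 8 treated livers and the 8 vehicle livers did not overlap for 4 members at 4 h (Atf4, Atf5, Ddit3 and Gdf15), as for 16.1% of all genes, and for 2 members at 22 h (Atf5 and Trib3), as for 7.41% of all genes.

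**Figure D1:**
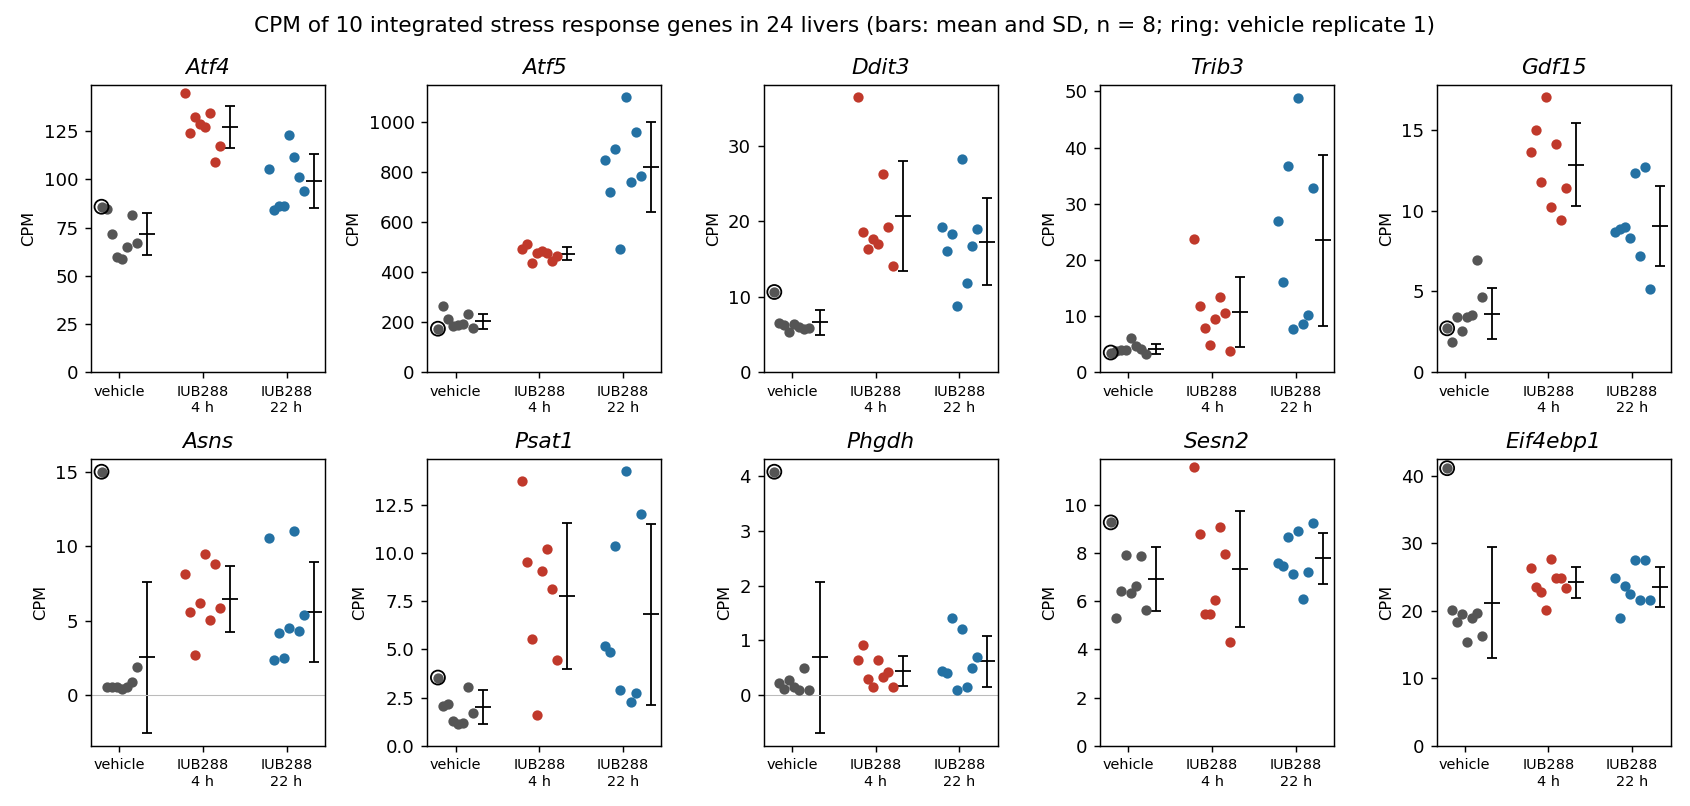
Scaled CPM (y axes, linear) of the 10 integrated stress response genes in each of the 24 livers, by group; bars are the mean and SD over 8 livers and the ring marks vehicle replicate 1. Atf5 is higher at 4 h than in vehicle and highest at 22 h, Atf4 and Gdf15 are highest at 4 h, and Trib3 spreads widely at 22 h. Vehicle replicate 1 is far above the other vehicle livers for Asns, Phgdh and Eif4ebp1.

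The 3 bZIP transcription factors were higher than vehicle at both times, but differed in how the 2 times compared. Atf4 (Entrez 11911, chr15:80255184-80257545, plus strand, GRCm38), the central factor of the response, ranged from 58.6 to 85.8 CPM in vehicle livers with a median of 69.4. At 4 h it ranged from 109 to 145 CPM with a median of 128, and at 22 h from 84.1 to 123 CPM with a median of 97.7. The 4 h livers lay wholly above vehicle, while at 22 h the lowest liver fell just inside the vehicle range. Atf4 mRNA was 1.79-fold higher at 4 h (log2 fold change 0.84 ± 0.09 SE, limma adjusted p = 3.49e-08) and 1.39-fold higher at 22 h (0.47 ± 0.09, limma adjusted p = 0.000271). With vehicle replicate 1 left out the changes were 0.88 ± 0.09 and 0.51 ± 0.09. The 22 h level was below the 4 h level (log2 difference -0.37 ± 0.09, limma adjusted p = 0.00225).

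Atf5 (Entrez 107503, chr7:44812256-44816658, minus strand), a relative of ATF4 that is abundant in liver and also known from mitochondrial stress, was highest at 22 h. It ranged from 173 to 263 CPM in vehicle livers (median 190), from 437 to 513 CPM at 4 h (median 476) and from 492 to 1102 CPM at 22 h (median 815). No treated liver overlapped vehicle at either time, and of the 22 h livers only replicate 4, at 492 CPM, lay within the 4 h range. Atf5 was 2.35-fold higher than vehicle at 4 h (log2 fold change 1.23 ± 0.11 SE, limma adjusted p = 1.42e-09) and 3.98-fold higher at 22 h (1.99 ± 0.11, limma adjusted p = 4.12e-12). The 22 h level was above the 4 h level by 0.76 ± 0.11 on the log2 scale (limma adjusted p = 8.63e-06). Its spread differed as well, with a coefficient of variation of 5.29% at 4 h and 22.0% at 22 h. An 82-base stretch of Atf5 exons, 4.11% of its exon length, is shared with Nup62 and Il4i1 on the other strand, and the strand setting of the counting was not given. Nup62 itself had log2 fold changes of -0.04 at 4 h and -0.49 at 22 h.

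Ddit3 (Entrez 13198, chr10:127290793-127296291, plus strand) encodes CHOP, the factor linked to cell death in prolonged stress. In vehicle livers it ranged from 5.30 to 10.6 CPM (median 6.13), the highest being replicate 1, and from 5.30 to 6.46 CPM in the other 7. At 4 h it ranged from 14.02 to 36.5 CPM (median 18.2) and at 22 h from 8.82 to 28.3 CPM (median 17.5). All 4 h livers lay above vehicle. At 22 h replicate 4, at 8.82 CPM, was below vehicle replicate 1 but above the other 7 vehicle livers. Ddit3 was 3.04-fold higher at 4 h (log2 fold change 1.60 ± 0.24 SE, limma adjusted p = 4.52e-06) and 2.49-fold higher at 22 h (1.32 ± 0.24, limma adjusted p = 0.000157). With vehicle replicate 1 left out they were 1.74 ± 0.25 (limma adjusted p = 3.04e-06) and 1.45 ± 0.25 (limma adjusted p = 9.18e-05). The difference between 22 h and 4 h was not called (-0.29 ± 0.19, limma adjusted p = 0.284). Ddit3 shares 68 exon bases with the methionyl-tRNA synthetase gene on the other strand, listed as Mars1 in the table, whose log2 fold changes were 0.18 at 4 h and 0.04 at 22 h.

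Trib3 (Entrez 228775, chr2:152337425-152344060, minus strand) encodes a pseudokinase that binds AKT and restrains ATF4 and CHOP as part of a feedback. Its vehicle levels ranged from 3.26 to 6.05 CPM with a median of 3.903. At 4 h the livers ranged from 3.74 to 23.8 CPM (median 9.96), and at 22 h from 7.72 to 48.9 CPM (median 21.5). The lowest 4 h livers, replicates 8 and 4, lay within the vehicle range, whereas at 22 h every liver was above it. Trib3 was 4.68-fold higher at 22 h (log2 fold change 2.23 ± 0.46 SE, limma adjusted p = 0.000607).

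The 4 h difference of Trib3 lay at the threshold and was not called (log2 fold change 1.23 ± 0.50 SE, limma adjusted p = 0.0501). It was called in 13 of 32 alternative fits, with adjusted p over all 32 from 0.00321 to 0.104. The calling fits that left out a single liver were those without 4 h replicate 4 (1.36, adjusted p = 0.0349) or 8 (1.40, adjusted p = 0.0254), and those without 22 h replicate 1, 3, 4, 5, 6 or 8, with adjusted p from 0.0284 to 0.0495. A fit of the 16 vehicle and 4 h livers alone gave 1.22 (limma adjusted p = 0.00553). The 22 h level was just called above the 4 h level (1.00 ± 0.38, limma adjusted p = 0.0497), and the call was lost in 23 of 32 alternatives with the same direction. Among them were the fits without any of vehicle replicates 2 to 8, of 4 h replicates 2 to 8, or of 22 h replicates 1, 2, 3, 5 and 8, with adjusted p from 0.0523 to 0.106. At 22 h the livers with most Trib3 were replicates 5 (48.9 CPM), 3 (36.8 CPM), 8 (32.7 CPM) and 1 (26.9 CPM), and the other 4 lay between 7.72 and 16.03 CPM. The coefficient of variation of Trib3 was 21.1% in vehicle, 58.7% at 4 h and 64.9% at 22 h.

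Gdf15 (Entrez 23886, chr8:70629393-70632470, minus strand) encodes a hormone that acts on the hindbrain to reduce food intake and is released under cell stress. It ranged from 1.88 to 6.92 CPM in vehicle livers (median 3.39), with 66 to 145 counts per liver. At 4 h it ranged from 9.41 to 17.0 CPM (median 12.7), above every vehicle liver, and at 22 h from 5.16 to 12.7 CPM (median 8.79), where replicate 8 lay below the highest vehicle liver. Gdf15 was 3.94-fold higher at 4 h (log2 fold change 1.98 ± 0.20 SE, limma adjusted p = 1.56e-08) and 2.73-fold higher at 22 h (1.45 ± 0.21, limma adjusted p = 9.48e-06). Like Atf4 it was lower at 22 h than at 4 h (-0.53 ± 0.16, limma adjusted p = 0.0153).

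Of the 4 members called between 22 h and 4 h, Atf5 and Trib3 were higher and Atf4 and Gdf15 lower, where 29.3% of all tested genes were called, 14.3% higher and 15% lower. Atf5 and Trib3 thus had their highest mean at 22 h, and Atf4, Ddit3, Gdf15, Asns and Psat1 at 4 h, although for Ddit3, Asns and Psat1 the difference between the times was not called.

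**Figure D2:**
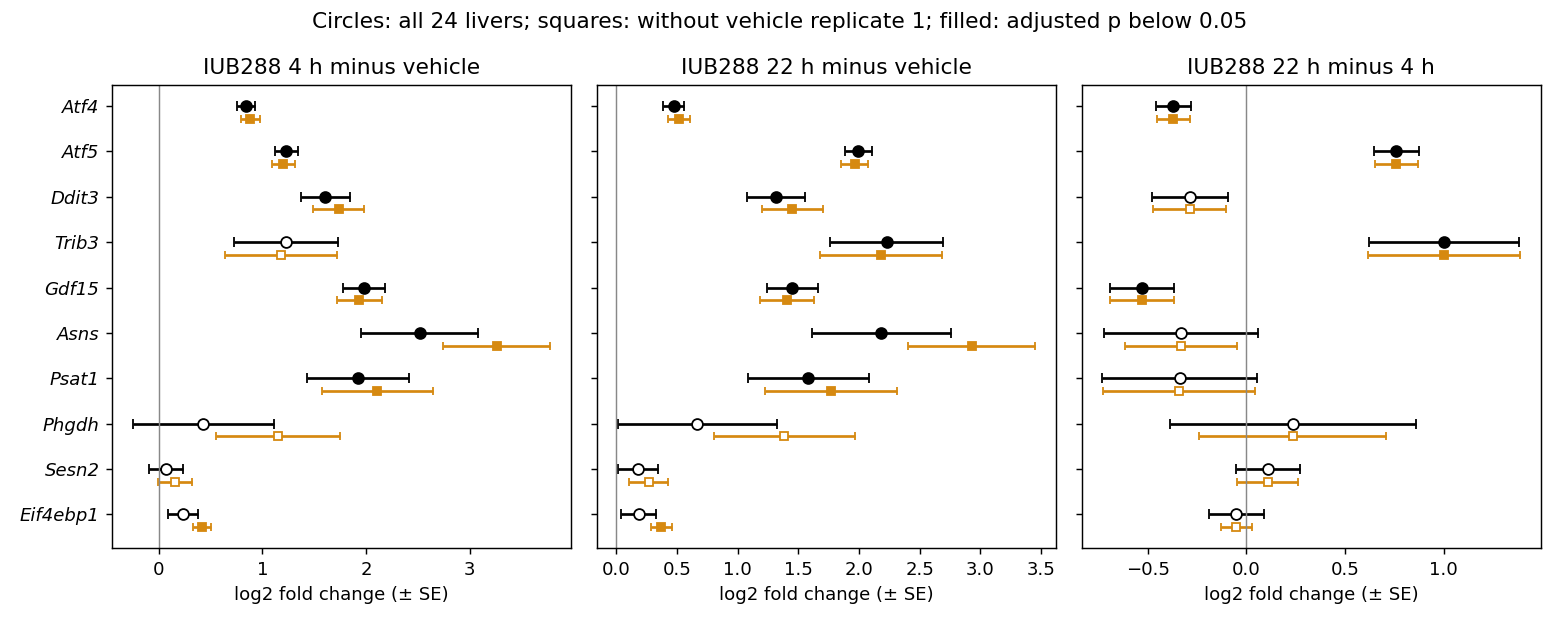
Log2 fold changes with their SE (x axes) of the 10 members in the 3 comparisons, from the limma-voom fit of all 24 livers (circles) and without vehicle replicate 1 (squares); filled symbols have an adjusted p below 0.05. Leaving out that liver moved Asns from 2.52 to 3.26 at 4 h and made Eif4ebp1 a called rise at both times, while the values for Atf4, Atf5, Trib3 and Gdf15 hardly moved.

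Among the amino acid synthesis genes, Asns and Psat1 rose and Phgdh did not pass the test. Asns (Entrez 27053, chr6:7675165-7693209, minus strand) makes asparagine from aspartate and glutamine and is a standard ATF4 target. In vehicle replicate 1 it was 15.003 CPM, above all other 23 livers. In the other 7 vehicle livers it ranged from 0.390 to 1.86 CPM with a median of 0.541. At 4 h it ranged from 2.69 to 9.48 CPM (median 6.03) and at 22 h from 2.38 to 11.0 CPM (median 4.40), so all 16 treated livers lay above those 7. With all livers, Asns was 5.72-fold higher at 4 h (log2 fold change 2.52 ± 0.56 SE, limma adjusted p = 0.000747) and 4.54-fold higher at 22 h (2.18 ± 0.57, limma adjusted p = 0.00431). With vehicle replicate 1 left out the log2 fold changes were 3.26 ± 0.52 (limma adjusted p = 1.27e-05) and 2.93 ± 0.52 (limma adjusted p = 0.000122). The difference between 22 h and 4 h was not called (-0.33 ± 0.39, limma adjusted p = 0.568).

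Psat1 (Entrez 107272, chr19:15905123-15925059, minus strand) carries out the transamination step of serine synthesis. It ranged from 1.15 to 3.54 CPM in vehicle livers (median 1.90), from 1.60 to 13.8 CPM at 4 h (median 8.62) and from 2.26 to 14.2 CPM at 22 h (median 5.03). Replicate 4 at 4 h, and replicates 4, 6 and 7 at 22 h, lay within the vehicle range. The other treated livers lay above it. Psat1 was 3.79-fold higher at 4 h (log2 fold change 1.92 ± 0.49 SE, limma adjusted p = 0.00254) and 3.00-fold higher at 22 h (1.58 ± 0.50, limma adjusted p = 0.0154), with no call between the times (-0.34 ± 0.39, limma adjusted p = 0.563). With vehicle replicate 1 left out its changes were 2.11 ± 0.54 (limma adjusted p = 0.00246) and 1.77 ± 0.55 (limma adjusted p = 0.0134).

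Phgdh (Entrez 236539, chr3:98313171-98339969, minus strand), the entry enzyme of serine synthesis, was close to the limit of what these libraries measure, with 3 to 185 counts per vehicle liver and 3 to 48 in treated livers. Vehicle replicate 1 held 4.07 CPM, and the other 7 vehicle livers 0.0960 to 0.504 CPM with a median of 0.146. The median was 0.385 CPM at 4 h (range 0.146 to 0.925) and 0.474 CPM at 22 h (range 0.0994 to 1.41), and the groups overlapped. Its log2 fold changes were 0.43 ± 0.68 SE at 4 h (limma adjusted p = 0.632) and 0.67 ± 0.66 at 22 h (limma adjusted p = 0.450). They were 1.15 ± 0.59 (limma adjusted p = 0.120) and 1.38 ± 0.58 (limma adjusted p = 0.0625) without vehicle replicate 1, and the 22 h change was called when libraries were weighted by quality (1.49, limma adjusted p = 0.0441). The annotation also holds a processed pseudogene of Phgdh, and how reads shared with it were counted was not given.

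Of the brakes on growth signalling and translation, Sesn2 was called at neither time. Eif4ebp1 was called higher only when vehicle replicate 1 was left out or libraries were weighted by quality. Sesn2 (Entrez 230784, chr4:132492804-132510456, minus strand), a leucine sensor that restrains mTORC1, ranged from 5.29 to 9.26 CPM in vehicle (median 6.52), 4.29 to 11.5 CPM at 4 h (median 6.99) and 6.08 to 9.23 CPM at 22 h (median 7.50). The 3 groups overlapped almost wholly. Its log2 fold changes were 0.07 ± 0.17 SE (limma adjusted p = 0.759) and 0.18 ± 0.16 (limma adjusted p = 0.409), and the 4 h value was -0.04 without 4 h replicate 1, the liver with most Sesn2. With vehicle replicate 1 left out they were 0.16 ± 0.17 and 0.27 ± 0.16, neither called.

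Eif4ebp1 (Entrez 13685, chr8:27260327-27275656, plus strand) encodes 4E-BP1, which blocks cap-dependent translation when mTORC1 is off and is an ATF4 target in several tissues. Vehicle replicate 1 was at 41.1 CPM, above every other liver, and the other 7 vehicle livers ranged from 15.4 to 20.1 CPM with a median of 18.9. At 4 h the range was 20.2 to 27.7 CPM (median 24.2) and at 22 h 19.0 to 27.6 CPM (median 23.0). The 8 livers at 4 h thus lay above those 7 vehicle livers, and at 22 h replicate 2 alone lay among them. With all livers no change was called, at 0.24 ± 0.14 SE (limma adjusted p = 0.185) for 4 h and 0.19 ± 0.14 (limma adjusted p = 0.3299) for 22 h. Both rises were called without vehicle replicate 1, at 0.42 ± 0.09 (limma adjusted p = 0.000283) and 0.37 ± 0.09 (limma adjusted p = 0.00165).

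To compare levels between genes, CPM were divided by the exon length of each gene in kilobases. In vehicle livers Atf5 was highest at 102 ± 15.6 CPM per kb (SD, n = 8), followed by Atf4 at 30.4 ± 4.66, Eif4ebp1 at 9.64 ± 3.75 and Ddit3 at 3.84 ± 0.978 CPM per kb. The ranges of these 4 genes did not overlap. Sesn2 (1.99 ± 0.382), Gdf15 (1.95 ± 0.844) and Trib3 (1.94 ± 0.410 CPM per kb) could not be placed in order, and the range of Gdf15 also reached that of Ddit3. Psat1 was at 0.475 ± 0.208 CPM per kb. Without vehicle replicate 1, Asns was at 0.273 ± 0.187 and Phgdh at 0.0848 ± 0.0587 CPM per kb (SD, n = 7), against 0.924 ± 1.85 and 0.279 ± 0.551 CPM per kb with it. At 22 h Atf5 stood at 411 ± 90.4 CPM per kb and Atf4 at 42.0 ± 5.93 CPM per kb (SD, n = 8), while Trib3, at 11.0 ± 7.17 CPM per kb, had reached the levels of Eif4ebp1 (10.7 ± 1.37) and Ddit3 (10.1 ± 3.36 CPM per kb) with overlapping ranges.

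Some of the members also varied together between livers of the same group. Log2 CPM were centred on the group mean, and Pearson's r was tested for the 45 pairs of members with permutations within groups. Over all 24 livers 16 pairs were called at an adjusted p below 0.05, and over the 23 livers without vehicle replicate 1, 13 pairs were called. All had a positive r, and 10 pairs were called both ways. The 23 livers are described from here on unless stated otherwise. The highest r was that of Ddit3 with Trib3 (0.857, permutation adjusted p = 0.00045; Spearman's rho = 0.781, permutation adjusted p = 0.0009), and without the 2 livers farthest from the median of Ddit3 r was 0.808. Trib3 went with Psat1 (r = 0.808, permutation adjusted p = 0.000675; rho = 0.795, permutation adjusted p = 0.0009; r = 0.753 without the 2 farthest livers). It also went with Sesn2 (r = 0.757, permutation adjusted p = 0.00045; rho = 0.754, permutation adjusted p = 0.0009; r = 0.705 without the 2 farthest livers). Psat1 went with Phgdh, its neighbour in serine synthesis (r = 0.777, permutation adjusted p = 0.000675; rho = 0.785, permutation adjusted p = 0.0009; r = 0.745 without the 2 farthest livers). Over all 24 livers the unadjusted permutation p of Psat1 with Phgdh was 1e-05, the smallest that 100000 permutations can give.

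Ddit3, Trib3, Psat1, Phgdh and Sesn2 formed a block in which all 10 pairs were called, with r from 0.614 to 0.857. By Spearman's rho 11 of the 13 pairs were called as well, the exceptions being Ddit3 with Phgdh and Atf5 with Ddit3. Atf4 was called only with Atf5 (r = 0.643, permutation adjusted p = 0.00949; rho = 0.659, permutation adjusted p = 0.0127; r = 0.469 without the 2 farthest livers), a pair that was not called over all 24 livers (r = 0.519, permutation adjusted p = 0.054). Atf5 was also called with Phgdh (r = 0.662) and Ddit3 (r = 0.640), but over all 24 livers neither was (r = 0.344 and 0.491), and without the 2 farthest livers r fell to 0.464 and 0.257. Asns, Gdf15 and Eif4ebp1 were in no pair called by Pearson's r over the 23 livers. For Eif4ebp1 this differed by measure, since by Spearman's rho it was called with Atf5 (rho = 0.661, permutation adjusted p = 0.0102) and Phgdh (rho = 0.594, permutation adjusted p = 0.0221). Over all 24 livers its r was called with Atf4, Ddit3, Psat1, Phgdh and Sesn2 (0.425 to 0.767), with permutation adjusted p from 0.00607 to 0.0336. For Asns r was 0.051 with Trib3 and 0.105 with Psat1, and for Gdf15 it was 0.016 with Trib3 and -0.023 with Psat1. Sesn2 covaried with Trib3 across livers while its group means differed by less than the spread, and Gdf15 rose in both treated groups with an r to Trib3 near 0.

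Within the 8 livers of a group, the r of Trib3 with Psat1 was 0.831 at 4 h and 0.958 at 22 h, and -0.546 in vehicle. For Trib3 with Sesn2 it was 0.948 at 4 h, 0.873 at 22 h and -0.0723 in vehicle, and for Trib3 with Ddit3 0.868, 0.878 and -0.233. These values within groups are descriptions over 8 livers, and the difference between groups was not tested. The vehicle values include vehicle replicate 1 and were not computed without it. That liver held the most Ddit3 (10.6 CPM) and Sesn2 (9.26 CPM) of the vehicle livers, beside 3.48 CPM of Trib3, so the sign of these vehicle values may depend on it. At 22 h, replicates 5, 8 and 3 were the 3 livers with most Trib3 and also those with most Psat1 (14.2, 12.0 and 10.4 CPM) and most Sesn2 (8.89, 9.23 and 8.65 CPM). At 4 h, replicate 1 was highest for Trib3 (23.8 CPM), Ddit3 (36.5 CPM), Psat1 (13.8 CPM) and Sesn2 (11.5 CPM) alike, and replicate 8 was lowest for Trib3 (3.74 CPM), Ddit3 (14.02 CPM) and Sesn2 (4.29 CPM).

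**Figure D3:**
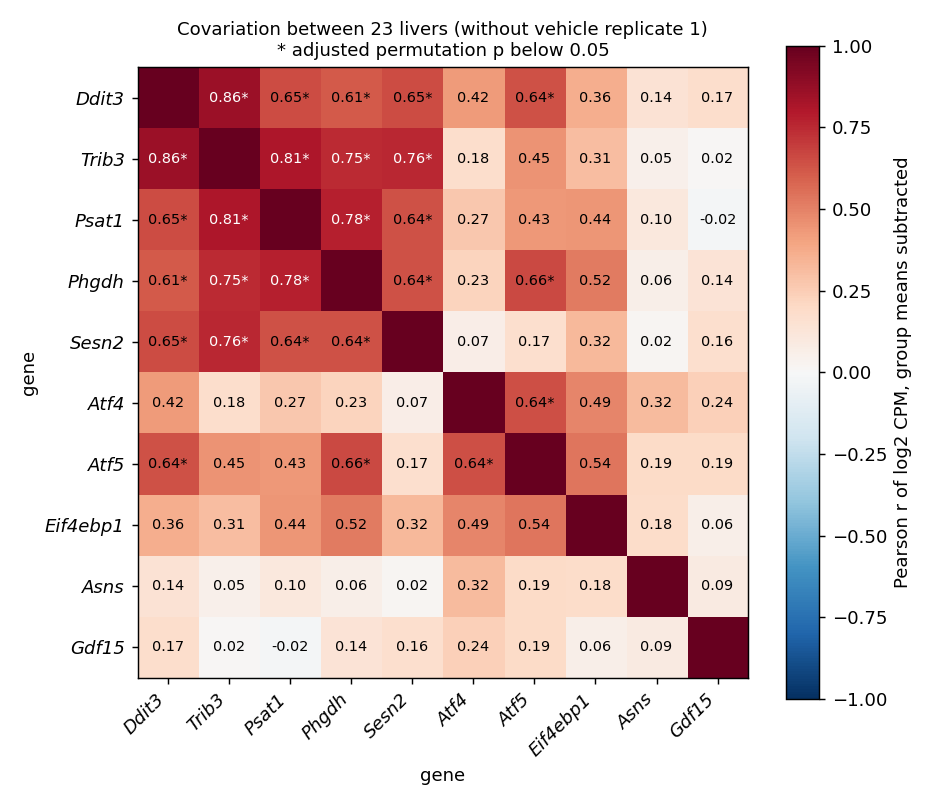
Pearson's r (colour and number) of log2 CPM with group means subtracted, for each pair of the 10 members over 23 livers without vehicle replicate 1; an asterisk marks a permutation p below 0.05 adjusted over 45 pairs. Ddit3, Trib3, Psat1, Phgdh and Sesn2 form a block with r from 0.614 to 0.857, and Asns and Gdf15 are near 0 with it.

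**Figure D4:**
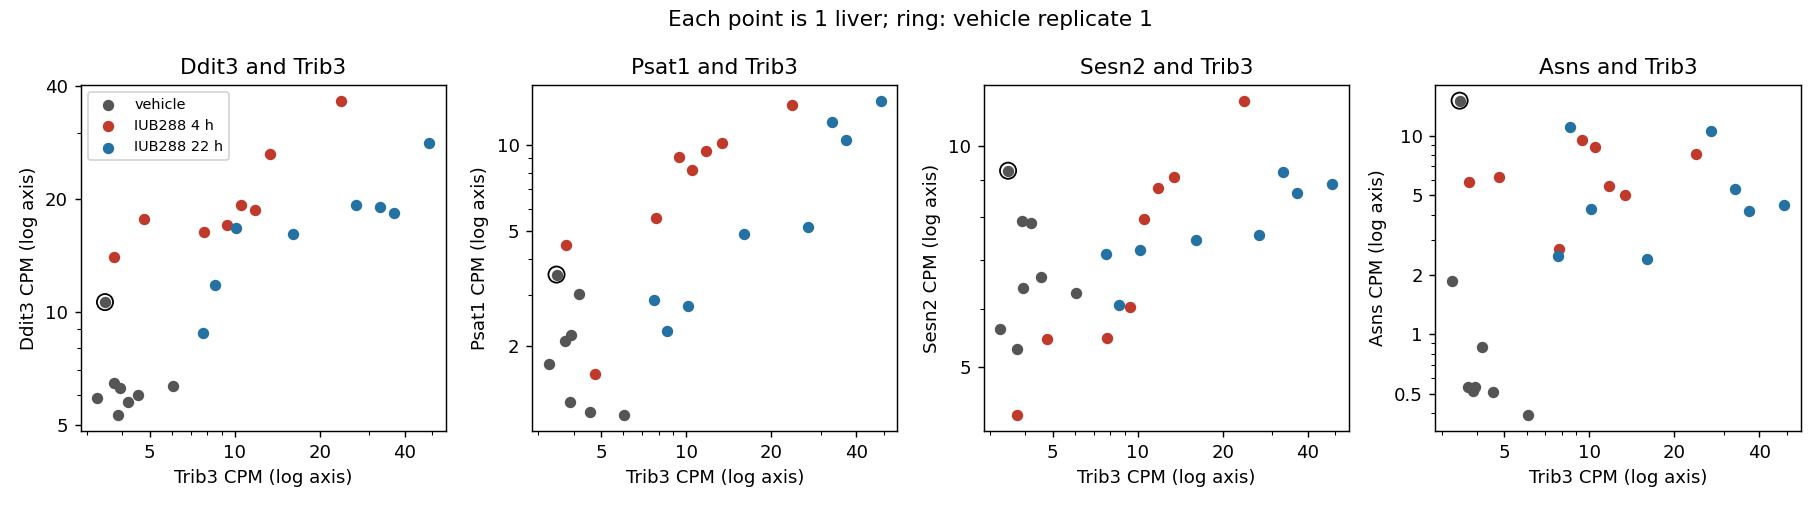
CPM of Ddit3, Psat1, Sesn2 and Asns (y axes, log scale) against CPM of Trib3 (x axes, log scale) in 24 livers; each point is 1 liver and the ring marks vehicle replicate 1. In treated livers Ddit3, Psat1 and Sesn2 rise with Trib3, and Asns shows no such order.

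The genes whose pattern was most like that of the members were sought by the r of log2 CPM over 24 livers with the mean of the members' z scores. The 5 non-members with the highest r were Gars (r = 0.903), Polr1c (0.886), Sars (0.883), Hspa9 (0.881) and Cep63 (0.853). Gars and Sars charge tRNAs with glycine and serine, and Hspa9 is the Hsp70 chaperone of mitochondria. After group means were subtracted, the 5 were Gars (r = 0.871), Smarcb1 (0.826), Arhgef2 (0.790), Slc3a2 (0.785) and Hspb1 (0.773), so Gars was in both. Without vehicle replicate 1, a set chosen after the data were seen, Sars led the former (r = 0.935) and Gars the latter (r = 0.838). Slc3a2 encodes the heavy chain shared by several amino acid exchangers.

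Upstream of ATF4, the genes of the eIF2α kinases did not move as a group. Of the 4 kinase genes, 2 were called higher at 4 h, 1 lower, and 2 were called higher and 2 lower at 22 h. Eif2ak3, which encodes PERK, the kinase of the endoplasmic reticulum, was higher (log2 fold change 0.80 ± 0.11 SE at 4 h and 0.32 ± 0.11 at 22 h). Eif2ak1, the heme-regulated kinase, was slightly higher (0.22 ± 0.05 and 0.14 ± 0.05). Eif2ak4, which encodes GCN2, the sensor of uncharged tRNA, was lower (-0.38 ± 0.07 and -0.37 ± 0.07), and Eif2ak2, the kinase PKR activated by double-stranded RNA, was lower at 22 h (-0.33 ± 0.08). When vehicle replicate 1 was left out, none of the 4 was called higher at 22 h and 2 were called lower. The limma adjusted p of the named values with all livers ran from 2.02e-06 to 0.0306.

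Of 5 genes for eIF2α phosphatase subunits, 3 were called higher at 4 h and 1 at 22 h. Ppp1r15b, the constitutive subunit, was 0.59 ± 0.05 higher (log2, SE) at 4 h, Ppp1cb, a catalytic subunit, 0.27 ± 0.04 higher, and Ppp1r15a, which encodes the stress-induced subunit GADD34, 0.77 ± 0.11 higher. At 22 h Ppp1r15b and Ppp1r15a were at 0.06 and 0.25, neither called, and Ppp1cb at 0.09 ± 0.04. Of 7 genes for subunits of eIF2 and eIF2B, 5 were higher at 4 h and 2 at 22 h, none lower, with Eif2s1, which encodes eIF2α itself, at 0.33 ± 0.05 at 4 h. Of 10 bZIP partners of ATF4, 4 were higher and 1 lower at 4 h, and 3 were higher and 2 lower at 22 h. Jund (0.95 ± 0.12) and Cebpb (0.78 ± 0.16) were higher at 4 h, and Cebpg, a common partner of ATF4, was higher at both times (0.48 ± 0.07 and 0.39 ± 0.07). Cebpa, a factor of the mature hepatocyte, was lower at 4 h (-0.51 ± 0.07).

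Of 8 further ATF4 targets in amino acid synthesis and one-carbon metabolism, 5 were higher at 4 h and 3 at 22 h, none lower, with a median log2 fold change of 0.88 and 0.43 beside -0.07 and -0.02 over all tested genes. With vehicle replicate 1 left out the counts were 5 and 2. Cth, which makes cysteine from cystathionine, was higher at both times (2.47 ± 0.20 and 2.36 ± 0.20). Mthfd2 (2.01 ± 0.25) and Mthfd1l (1.71 ± 0.13), enzymes of the mitochondrial folate pathway, were higher at 4 h, and at 22 h they were at 0.42 (not called) and 0.43 ± 0.14. Aldh1l2, of the same pathway, was higher at both times (1.27 ± 0.33 and 1.51 ± 0.32), and Gpt2, an alanine transaminase, was higher at 4 h (0.49 ± 0.11). Psph, which completes serine synthesis after Phgdh and Psat1, was named after its values were seen, and it was not called at either time (-0.19 and -0.06).

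Of 7 genes of serine use and breakdown 4 were higher at both times, and 1 was lower at 4 h. Agxt, which passes the amino group of serine to pyruvate or of alanine to glyoxylate, was higher by 2.48 ± 0.21 and 2.31 ± 0.21. Sds, which turns serine into pyruvate, was higher by 2.13 ± 0.24 and 1.41 ± 0.24. Cbs, which joins serine to homocysteine, was higher by 1.28 ± 0.11 and 1.72 ± 0.11. On the same log2 scale Psat1, which takes part in making serine, stood at 1.92 and 1.58.

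Of 6 amino acid transporter genes tested, 3 were higher at 4 h and 1 at 22 h. Slc3a2 (1.71 ± 0.11 at 4 h, 0.42 ± 0.11 at 22 h), Slc7a5 (1.15 ± 0.28 at 4 h), its partner in the leucine transporter, and Slc7a1 (1.03 ± 0.27 at 4 h), for cationic amino acids, were the 3. Of 11 cytosolic tRNA synthetase genes 10 were higher at 4 h and 6 at 22 h, none lower. Between the times 6 of the 11 were called lower at 22 h and none higher. Aars (1.14 ± 0.09) and Eprs (1.02 ± 0.08) had the largest values of the named ones at 4 h, and were at 0.51 ± 0.09 and 0.52 ± 0.08 at 22 h. Iars was at 0.71 ± 0.09 and 0.38 ± 0.09, and Sars at 0.69 ± 0.10 and 0.67 ± 0.10. Of 10 ATF4 and CHOP targets in stress and cell death, 4 were higher and 3 lower at 4 h, and 2 higher and 2 lower at 22 h, with medians of 0.07 and 0.09. Other targets sought for this list, among them Chac1, Nupr1, Ddit4, Herpud1 and Fgf21, had no row in the count table under these symbols. The counts and medians therefore cover a part of these targets, and several other lists were likewise incomplete. Without vehicle replicate 1 the counts were 4 and 1 at 4 h, and 3 and 2 at 22 h. Sqstm1, the autophagy receptor p62, was higher at both times (0.92 ± 0.13 and 0.87 ± 0.13), and Atg5, of autophagosome formation, was lower at both times (-0.22 ± 0.06 and -0.26 ± 0.06). Ero1a was higher at both times (0.67 ± 0.07 and 0.19 ± 0.07), and Bcl2l11 was higher at 4 h (0.41 ± 0.10).

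Genes of related stress programmes were counted beside these. Of 10 targets of ATF6 and XBP1 in the endoplasmic reticulum, 6 were higher and 1 lower at 4 h, and 2 were higher at 22 h. Dnajb9, a co-chaperone, was higher at both times (0.71 ± 0.12 and 0.51 ± 0.12), and Xbp1 was lower at 4 h (-0.50 ± 0.10) and higher at 22 h (0.34 ± 0.10). Of 4 mitochondrial stress genes 3 were higher at both times, led by Hspa9 (0.91 ± 0.08 and 0.92 ± 0.08). Of 9 p53 targets, a list counted since p53 also controls Sesn2 and Gdf15, 5 were higher and 1 lower at 4 h, and 1 higher and 1 lower at 22 h. Mdm2, the ligase that degrades p53, was the one higher at both times (0.47 ± 0.06 and 0.47 ± 0.06), and Btg2 was higher at 4 h (1.04 ± 0.16). Sesn1, the close relative of Sesn2, was lower at both times (-0.81 ± 0.11 and -0.80 ± 0.11), and Cdkn1a was higher at 4 h (1.00 ± 0.25). Of 9 relatives of the members (sestrins, 4E-BPs, tribbles and ATF factors) 2 were higher and 2 lower at 4 h, and 1 higher and 2 lower at 22 h, and of 3 negative regulators of mTORC1 1 was higher at 4 h and none at 22 h. Without vehicle replicate 1, the genes called higher at 22 h numbered 4 bZIP partners, 2 transporters, 2 p53 targets and 1 regulator of mTORC1, and the counts of the eIF2, phosphatase, relatives, tRNA synthetase, endoplasmic reticulum, mitochondrial and serine breakdown lists were as given.

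**Figure D5:**
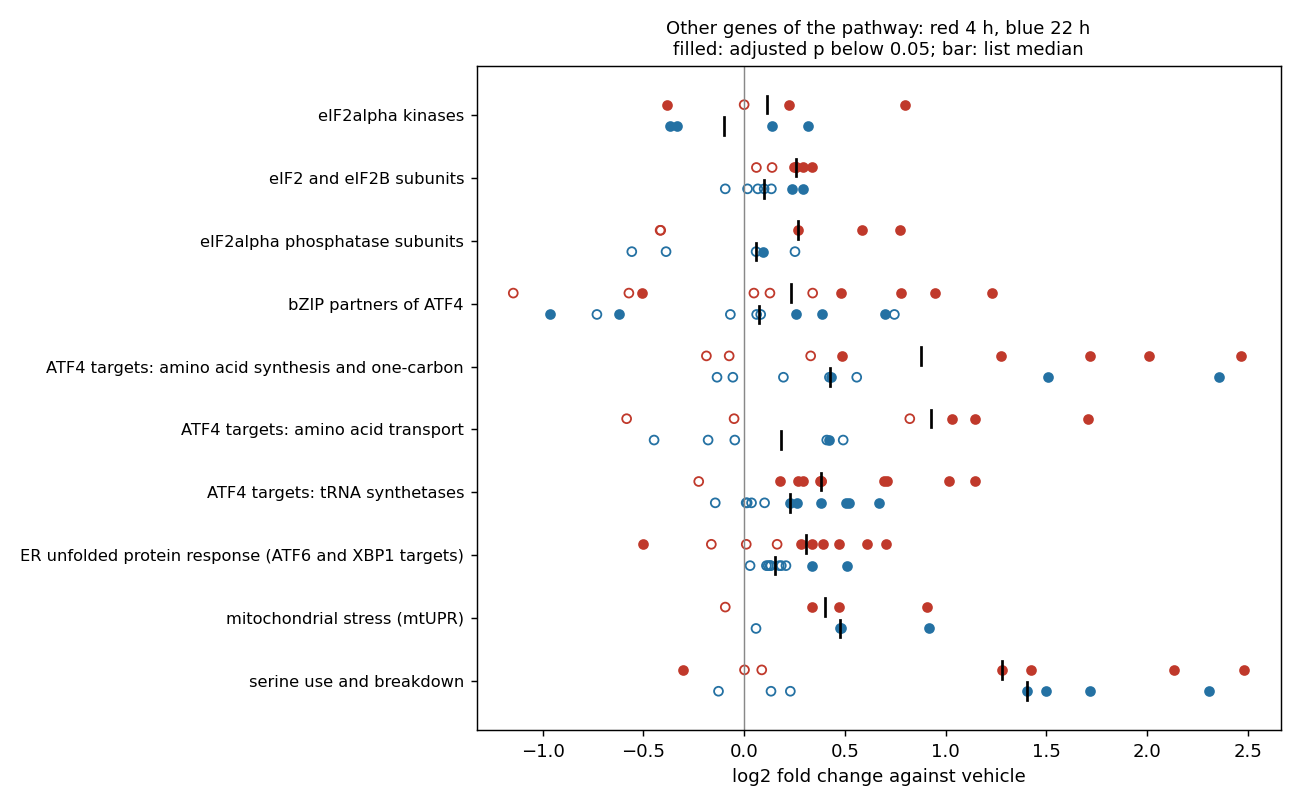
Log2 fold changes against vehicle (x axis) of other genes of the pathway by list (y axis), at 4 h (red) and 22 h (blue); filled points have a limma adjusted p below 0.05 and bars are list medians. Amino acid synthesis, transport and tRNA synthetase genes are higher at 4 h than at 22 h by their medians (0.88 against 0.43 for amino acid synthesis and one-carbon metabolism), while serine breakdown keeps a median of 1.28 and 1.41. Compared directly, the 8 amino acid synthesis and one-carbon genes had a median 22 h minus 4 h difference of -0.08, with 3 called lower and 5 not called.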

How the data were processed

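mRNA-seq libraries of 24 mouse livers were compared as 8 biological replicate mice per group. Per the submitters' processing notes, cutadapt was the trimmer, GSNAP the aligner and GRCm38 the genome. Their versions, the counting tool with its annotation and the handling of strand are not given in the sources used here. The deposited values are unnormalized whole-number counts per gene by Entrez number, and all 536520 were whole. The table is quoted and space-separated, so an automated check of units could not read it as counts. The count models of edgeR and DESeq2 were therefore not run. Limma-voom (limma 3.58.1, R 4.3.3), applied to the same counts, was used in their place. Every column of the deposited table was used, and genes outside it were not analysed here.

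A filter on low counts (at least 10 in enough libraries for 1 group, and 15 summed over libraries) passed 11508 genes that hold 99.9% of all counts. Libraries were scaled by TMM written in R (trims of 0.3 and 0.05), voom used an offset of 0.5, and 1 model of the 3 group means had 21 residual degrees of freedom. P-values were adjusted by Benjamini-Hochberg over all tested genes. The 10 members and the pathway lists were chosen with earlier results of these data known. Genes named from a list were taken from its up to 4 called genes of at least 1 CPM with the smallest p at 4 h, and likewise at 22 h, and not all of these are named. Pairs of members were tested with 100000 2-sided permutations within groups (numpy 2.4.6, scipy 1.17.1). Exon lengths came from GENCODE vM21, and coordinates and promoters from RefSeq. The fit was also run on simulated counts with the same dispersion for every gene and few changed genes. That check does not cover members as variable as Trib3, Phgdh and Asns. The limma p-values set a difference between groups against the spread between these mice. The permutation p-values concern how a pair of members varies together within groups.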

Additional observations from a re-analysis of the deposited data

Results flagged for a closer look

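Of the 30 combinations of a member and a group, 5 had a liver whose distance from the rest of its group passed Dixon's 95% limit, where chance gives about 1 in 20. In vehicle replicate 1 this held for Ddit3 (10.6 CPM, the others at most 6.46), Asns (15.003 CPM, the others at most 1.86), Phgdh (4.07 CPM, the others at most 0.504) and Eif4ebp1 (41.1 CPM, the others at most 20.1). It is the liver with the adipocyte markers, whose part in these values was not tested, while Atf4, Atf5, Trib3, Gdf15, Psat1 and Sesn2 did not pass that limit in it. In vehicle replicate 5 it held for Trib3 (6.05 CPM, the others at most 4.56).

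The level in IUB288 livers differed between the 2 times for 4 members by the test of 22 h against 4 h. No vehicle livers were collected at 4 h, so this test does not show a different effect against vehicle. Atf5 (0.76 on the log2 scale) and Trib3 (1.00) were higher at 22 h, and Atf4 (-0.37) and Gdf15 (-0.53) were lower. The Trib3 call lay at the threshold (limma adjusted p = 0.0497) and was lost in 23 of 32 alternative fits.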

How the results depend on the processing

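Every member value was computed under up to 32 alternatives (24 fits that left out 1 liver, and 8 others). Called genes numbered 4694 to 5778 at 4 h, 3730 to 4388 at 22 h and 3081 to 3816 between the times, and called members 6 to 8, 7 to 9 and 3 to 4. Atf4, Atf5, Ddit3, Gdf15, Asns and Psat1 stayed called higher than vehicle at both times, and Trib3 at 22 h, in all 32. With sample quality weights Eif4ebp1 was called at both times (0.42 and 0.33), and Phgdh at 22 h (1.49, limma adjusted p = 0.0441). Phgdh was not tested under the stricter filter of 1 CPM in 8 libraries. Scaling by library totals moved the median change of all genes at 4 h from -0.07 to -0.13, and called 23 member pairs in place of 16. The labels do not say whether a shared replicate number marks mice that belong together, so the main fit had no replicate block. Same-numbered livers correlated from -0.22 to 0.13 across genes, and 2 of 24 pairs exceeded 0.1. These correlations run over all genes and cannot exclude a shared effect on single genes. With a replicate block, Trib3 was called at 4 h (1.34, limma adjusted p = 0.00321), Gdf15 was not called between the times (-0.50, limma adjusted p = 0.0649), and Phgdh was at -0.01 at 4 h. The count models of edgeR and DESeq2 were not run. Depth limits Phgdh most, with as few as 3 counts in a liver.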
